A study of Mus musculus with 8 samples.

Results

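Cathepsins are the proteases of the lysosome, and cystatins are their inhibitors. The 10 genes described here are 8 cathepsins, *Ctsa*, *Ctsb*, *Ctsc*, *Ctsd*, *Ctsk*, *Ctsl*, *Ctss* and *Ctsz*, and 2 cystatins, *Cst3* and *Cstb*. They were taken by gene symbol from the 21859 genes of the count files. All 10 passed the filter on low counts, which kept 15077 genes. RNA was sequenced from the whole aorta of 4 ApoE-/- and 4 WT mice. All were males of 40 weeks on the C57BL/6 background and were fed a normal diet, so that neither genotype received a high-fat diet. The knockout was germline and affected every cell, and each library came from 1 mouse.

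Most cathepsins, among them B, C, K, L, S and Z, are cysteine proteases of the papain family. Cathepsin D is an aspartic protease and cathepsin A a serine carboxypeptidase. They are made as inactive precursors, carried to the lysosome mainly by mannose 6-phosphate receptors, and activated when the propeptide is cut off in the acid interior. Several are also secreted by macrophages and smooth muscle cells of atherosclerotic plaques, where cathepsins S, K and L can degrade elastin and collagen. Cystatin C, the product of *Cst3*, is secreted and blocks papain-like cathepsins outside the cell. Cystatin B, the product of *Cstb*, acts inside the cell. Neither inhibits cathepsin D or cathepsin A.

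Levels are given as CPM, the counts of a gene relative to the size of the library after scaling by trimmed-mean (TMM) factors, for ApoE-/- mice 1 to 4 and then WT mice 1 to 4. The genotypes were compared with edgeR's quasi-likelihood test over all 15077 genes, and an adjusted p (Benjamini-Hochberg) under 0.05 was called. DESeq2, which the study used, was the main alternative. Between 18375898 and 23940156 read pairs were counted on genes in each mouse, and the ApoE-/- mice lay above the WT mice (lowest of the former 23240995, highest of the latter 21664598). The 10 genes had from 165 to 48896 counts in a mouse. *Apoe* itself, the deleted gene, was at 32.3, 14.7, 17.6 and 36.3 CPM in ApoE-/- mice and at 809, 667, 536 and 857 CPM in WT mice. Its fall was called by edgeR (log2 fold change -4.83, SE 0.37, adjusted p = 0.0141), and each mouse matched its label.

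All 10 genes had a higher fitted level in ApoE-/- mice, with a median log2 fold change of 0.73 against 0.05 over all genes tested, and 58.0% of all genes tested had a positive value. edgeR called none of the 10, whereas 8 had an unadjusted p under 0.05, and it called 0.371% of all genes as higher, or 7.19% at the unadjusted threshold. DESeq2 called 4 of the 10 as higher, *Ctss*, *Ctsb*, *Ctsl* and *Ctsd*, and 2.84% of all genes. limma-voom called 0 (0.139% of all genes as higher), with 6 at an unadjusted p under 0.05 (6.44% of all genes). For 7 of the 10 every ApoE-/- mouse lay above every WT mouse, which held for 5.41% of all genes. *Ctsk*, *Ctsz* and *Cst3* were the genes whose genotypes overlapped. In an extract of the whole aorta, more cells of a type and more RNA per cell cannot be told apart.

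**Figure D1:**
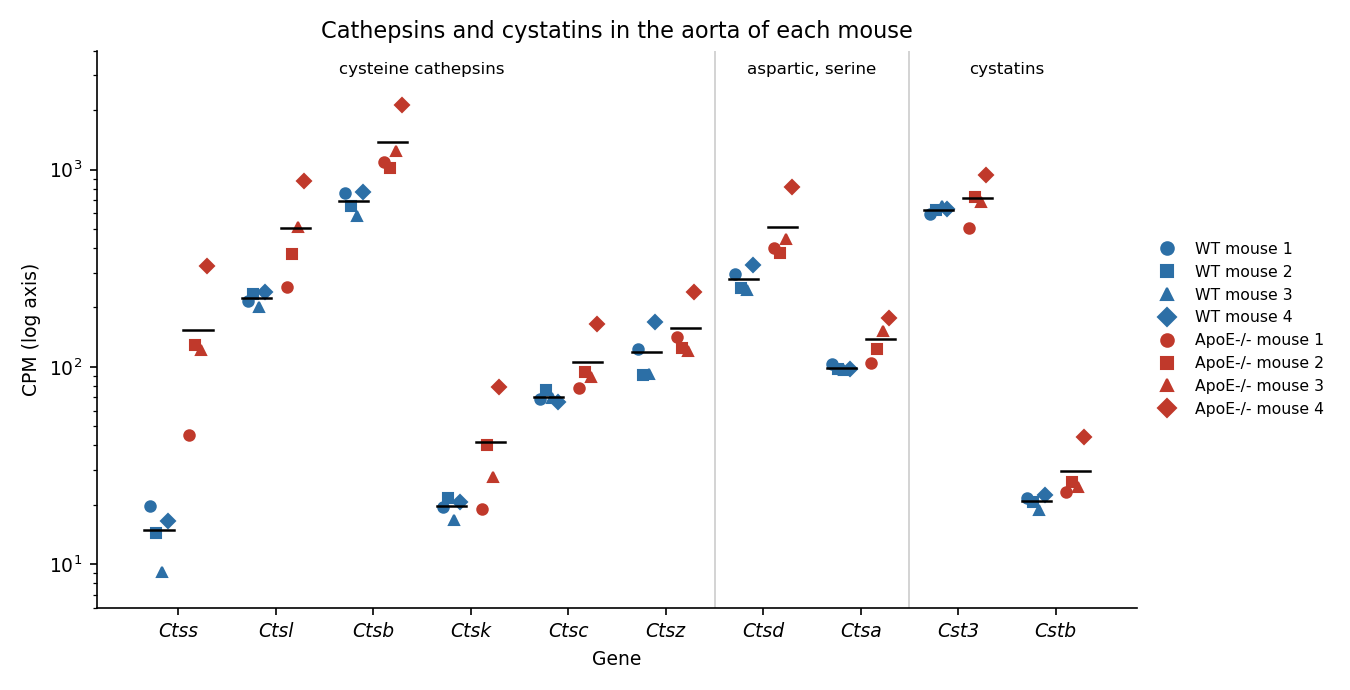
CPM of the 10 genes (log axis) in each of the 4 WT (blue) and 4 ApoE-/- (red) mice, with the shape giving the mouse number and the bar the mean of the genotype. The diamond of ApoE-/- mouse 4 is the highest point for all 10 genes, and *Ctss* has the widest gap between the genotypes.

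Cathepsin S cleaves elastin, stays active near neutral pH, and in antigen-presenting cells degrades the invariant chain of class II molecules. *Ctss* (chr3:95526786-95556403, plus strand, GRCm38) was the gene of the group with the largest difference. It was at 45.0, 129, 121 and 323 CPM in ApoE-/- mice and at 19.6, 14.3, 9.14 and 16.6 CPM in WT mice. The lowest ApoE-/- mouse lay well above the highest WT mouse. The means were 155 ± 119 and 14.9 ± 4.41 CPM (SD, N = 4), a ratio of 10.4. The log2 fold change of 3.37 (SE 0.58) placed *Ctss* at rank 20 of the 15077 genes by size. Its adjusted p was 0.0526 in edgeR and 3.86e-08 in DESeq2. Without ApoE-/- mouse 1, edgeR called it (adjusted p = 0.00694), and over the 8 fits that each left out 1 mouse the adjusted p ranged from 0.00694 to 0.202. DESeq2 called it in all 8.

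The gene starts 17.424 kb beyond the end of *Ctsk*, on the same strand, and these bases before its RefSeq start are shown because *Ctss* differed most. Capitals mark TATAAA (read on the minus strand) and GGGCGG.
Ctss, 250 bases before the start, chr3:95526536-95526785, plus strand, GRCm38.p6: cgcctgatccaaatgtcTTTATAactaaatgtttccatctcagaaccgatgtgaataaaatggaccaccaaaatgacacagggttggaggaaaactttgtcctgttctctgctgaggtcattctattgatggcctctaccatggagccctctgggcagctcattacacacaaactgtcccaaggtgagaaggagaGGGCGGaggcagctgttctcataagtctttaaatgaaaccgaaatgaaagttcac
The TATAAA match began 233 bases and the GGGCGG match 55 bases before the start, and such matches occurred in 12.4% and 32.7% of the 32851 mouse promoter windows of that length.

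*Ctsk* (chr3:95499256-95509362, plus strand), the neighbour of *Ctss*, encodes cathepsin K, which cleaves the triple helix of type I collagen and is the main cathepsin of osteoclasts. It was at 19.0, 40.4, 27.7 and 79.0 CPM in ApoE-/- mice and at 19.5, 21.5, 16.8 and 20.7 CPM in WT mice. ApoE-/- mouse 1 lay within the WT range, and the other ApoE-/- mice lay above it. The fitted difference on the log2 scale was 1.08 (SE 0.40), with an adjusted p of 0.330 in edgeR and of 0.141 in DESeq2. Within each mouse *Ctss* was 2.37, 3.19, 4.38 and 4.09 times *Ctsk* by CPM in ApoE-/- mice, against 1.00, 0.67, 0.54 and 0.80 times in WT mice. The neighbouring pair therefore stood in different proportion in the 2 genotypes, with no overlap. The tested genes on either side, *Setdb1* and *Arnt* before *Ctsk* and *Golph3l* and *Ensa* after *Ctss*, had log2 fold changes of -0.03, -0.19, 0.05 and 0.15, and neither tool called any of them.

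Cathepsins L and B are the broad endopeptidases of most cells, and cathepsin B also trims dipeptides from the carboxyl end. *Ctsl* (chr13:64359337-64370890, minus strand) was at 254, 373, 509 and 875 CPM in ApoE-/- mice and at 217, 233, 201 and 240.5 CPM in WT mice. *Ctsb* (chr14:63122462-63145923, plus strand) was at 1089.6, 1024, 1248 and 2122 CPM in ApoE-/- mice and at 759, 650.3, 583 and 771 CPM in WT mice. Both were higher in every ApoE-/- mouse than in any WT mouse, but *Ctsl* in ApoE-/- mouse 1 was close to the WT range, whereas *Ctsb* was clear of it in all 4. On the log2 scale the fold change was 1.17 (SE 0.35) for *Ctsl* and 0.99 (SE 0.27) for *Ctsb*. The adjusted p was 0.1996 for *Ctsl* and 0.153 for *Ctsb* in edgeR, and 0.0280 and 0.00773 in DESeq2. Leaving out 1 mouse at a time, DESeq2 kept the call of *Ctsb* in 6 of 8 fits and that of *Ctsl* in 2 of 8.

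Cathepsin C, or dipeptidyl peptidase I, activates the serine proteases of mast cell, neutrophil and T cell granules, and cathepsin Z removes single residues from the carboxyl end of proteins. *Ctsc* (chr7:88278085-88310888, plus strand) was at 78.0, 94.1, 88.9 and 164 CPM in ApoE-/- mice and at 68.8, 76.0, 69.5 and 66.7 CPM in WT mice. *Ctsz* (chr2:174427493-174439039, minus strand) was at 142, 124, 121 and 239.7 CPM in ApoE-/- mice and at 123, 90.9, 92.3 and 168 CPM in WT mice. The genotypes were separate for *Ctsc*, by a small margin, and overlapped for *Ctsz*, where WT mouse 4 lay above 3 of the ApoE-/- mice. *Ctsc* differed by 0.60 (SE 0.23) and *Ctsz* by 0.40 (SE 0.29) on the log2 scale, and edgeR gave adjusted p-values of 0.345 and 0.722. Neither was called by DESeq2.

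Cathepsin D is the main aspartic protease of lysosomes, and cathepsin A also protects the lysosomal beta-galactosidase and neuraminidase in a complex with them. *Ctsd* (chr7:142375911-142388038, minus strand) was at 402, 379, 444 and 817 CPM in ApoE-/- mice and at 295, 251, 245 and 327 CPM in WT mice. *Ctsa* (chr2:164832873-164841032, plus strand) was at 104.1, 122, 151 and 176 CPM in ApoE-/- mice and at 103.8, 97.9, 96.5 and 97.4 CPM in WT mice. The genotypes of *Ctsa* were separated by the small gap between ApoE-/- mouse 1 and WT mouse 1, and those of *Ctsd* by the gap between 379 and 327 CPM. The log2 fold change of *Ctsd* was 0.87 (SE 0.27, adjusted p = 0.215 in edgeR and 0.0466 in DESeq2), and DESeq2 called it in 3 of the 8 fits with 1 mouse left out. For *Ctsa* it was 0.49 (SE 0.16, adjusted p = 0.266 in edgeR and 0.165 in DESeq2). *Ctsd* and *Ctsc* share chromosome 7 with *Apoe* but lie 122.7 and 68.6 Mb from it. Parts of *Ctsa* overlap *Neurl2* and *Pltp*, and part of *Ctsz* overlaps *Nelfcd*, on the opposite strand. *Gm49369* shares exons with *Ctsd* on the same strand and had 0 counts in all 8 mice.

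Cystatin C is made by nearly all cell types. *Cst3* (chr2:148871722-148875692, minus strand) was at 505, 727, 683 and 941 CPM in ApoE-/- mice and at 598, 619.9, 652 and 629 CPM in WT mice. ApoE-/- mouse 1 was below every WT mouse, and the other ApoE-/- mice were above every WT mouse. *Cst3* thus differed by 0.19 (SE 0.20) on the log2 scale, with an adjusted p of 0.810 in edgeR and 0.879 in DESeq2. *Cstb* (chr10:78425669-78427622, plus strand) was at 23.1, 26.2, 24.7 and 44.1 CPM in ApoE-/- mice and at 21.5, 20.5, 18.7 and 22.3 CPM in WT mice. Its genotypes did not overlap, but 3 of the ApoE-/- mice lay close above the WT range, and the fold change of 0.51 (SE 0.21, log2) had an adjusted p of 0.400 in edgeR and 0.353 in DESeq2.

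All 10 genes were highest in ApoE-/- mouse 4, where 8 were at least 2-fold above the WT mean, and 7 had their lowest ApoE-/- value in mouse 1. Relative to the WT mean, mouse 4 reached a log2 value of 4.44 for *Ctss*, 2.01 for *Ctsk*, 1.97 for *Ctsl* and 1.62 for *Ctsb*, whereas mouse 1 was at 1.59, -0.05, 0.19 and 0.66 for the same genes. Without mouse 1, for 9 of the 10 genes every ApoE-/- mouse lay above every WT mouse (9.82% of all genes). In the same comparison edgeR called 3, *Ctss*, *Ctsl* and *Ctsa* (2.75% of all genes), and DESeq2 called 7 (5.18% of all genes). Without mouse 4, edgeR called 0 (0.00659% of all genes) and DESeq2 called 3 (2.39%), and the log2 fold change was 2.72 for *Ctss*, 0.77 for *Ctsl* and 0.03 for *Cst3*. In that edgeR fit it was 0.70 for *Ctsb*, 0.56 for *Ctsk*, 0.55 for *Ctsd* and 0.35 for *Ctsa*. For *Ctsc*, *Cstb* and *Ctsz* it was 0.31, 0.25 and 0.12. All 10 values were smaller than those with all mice.

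**Figure D2:**
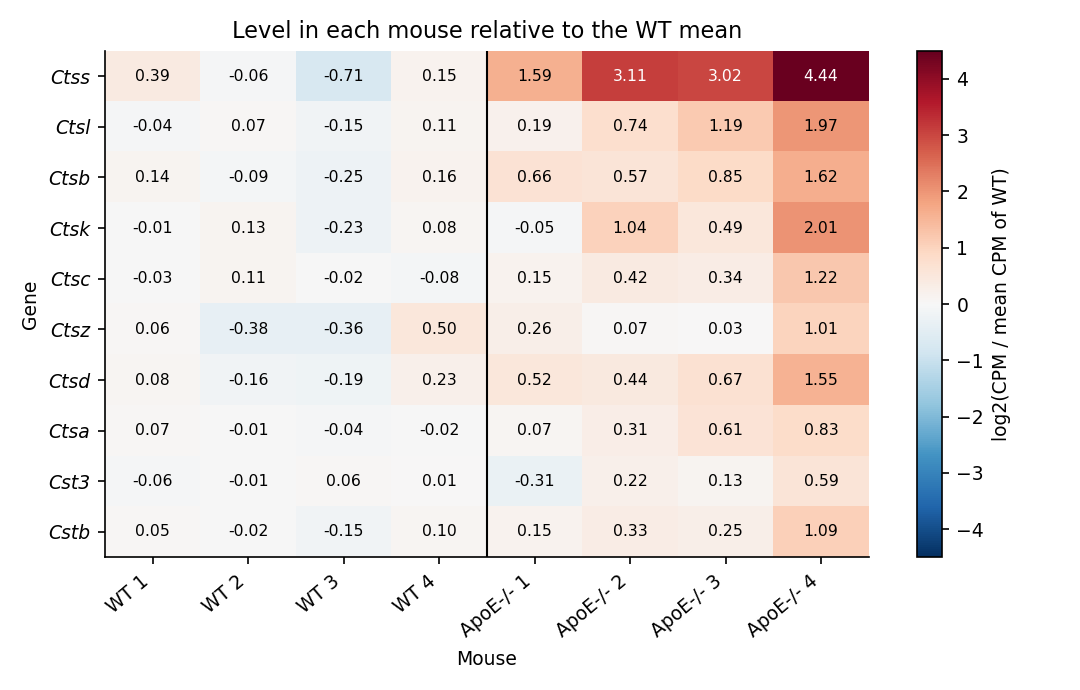
log2 of the CPM of each gene (rows) in each mouse (columns) over the mean CPM of the 4 WT mice. Red is above and blue below that mean. The WT columns stay between -0.71 and 0.50, and of the ApoE-/- columns that of mouse 4 has the highest value for all 10 genes (*Ctss* at 4.44), while mouse 1 alone has values below 0 (*Cst3* at -0.31 and *Ctsk* at -0.05).

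Deviations of log2 CPM from the mean of each genotype were compared between genes over the 8 mice, as a description. Mice share library depth and composition, and with 8 points from 2 genotypes many genes reach high values. The median Pearson r over the 45 pairs of the 10 genes was 0.85, with *Ctsb* and *Ctsd* most alike (0.99) and *Ctsz* and *Cst3* least (0.44). Among 10422 genes with a mean of at least 10 CPM, those most like *Ctss* were *Ptafr* (0.98), *Lyz2* (0.97) and *Adgre1* (0.97). For *Ctsl* they were *C1qb*, *Dnase2a* and *Tyrobp*, for *Cstb* *Mrc1*, *Pf4* and *Pdcd6*, for *Ctsb* *Ctsd*, *Hnrnpf* and *Csf1r*, and for *Ctsd* *Mfsd1*, *Ctsb* and *Ftl1*. Those most like *Ctsk* were *Tnfsf13b*, *Rdm1* and *Dnttip2*, those most like *Ctsa* *Ppic*, *Mmp2* and *Cybb*, and those most like *Ctsc* *Arl1*, *Rpl8* and *Rpl41*. For *Ctsz* they were *Car13*, *Dram1* and *Pno1*, and for *Cst3* *Ybx1*, *Ddx3y* and *Zfp110*.

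Most macrophage markers had higher levels in ApoE-/- mice as well. Over 17 macrophage genes, summed levels were 683 to 2696 CPM in ApoE-/- mice and 544 to 659 CPM in WT mice, with mouse 1 again lowest and mouse 4 highest of the ApoE-/- mice. None of the 17 was at 0 in a mouse. edgeR called 1 of them, *Fcgr1*, an Fc receptor, and DESeq2 called 12, while for 15 every ApoE-/- mouse lay above every WT mouse. The median log2 fold change of the list was 1.55. *Cd68*, a lysosomal glycoprotein of macrophages, was at 12.7, 25.4, 37.9 and 64.3 CPM in ApoE-/- mice and at 9.09, 7.96, 5.54 and 7.76 CPM in WT mice. *Lyz2*, which encodes lysozyme, was at 152, 377, 511 and 998 CPM and at 122, 94.2, 73.3 and 104 CPM. The genotypes overlapped for *Cd163*, a scavenger receptor, and *Mertk*, a receptor for dying cells, with log2 fold changes of 0.01 and 0.20, and neither tool called them. The part of macrophage content in the differences of the cathepsins was not tested.

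The 10 genes were also set against these markers within each mouse. The log2 fold change of *Ctss* was larger than that of all 17 markers, and its ratio to the marker was higher in every ApoE-/- mouse than in any WT mouse for 15 of the 17. *Ctss* was the gene of the 10 with the largest change and stood at rank 20 of all genes, so other genes exceeded the markers too. The ratio of *Ctss* to *Cd68* was 3.54, 5.07, 3.20 and 5.02 in ApoE-/- mice and 2.16, 1.80, 1.65 and 2.14 in WT mice. To *Lyz2* it was 0.30, 0.34, 0.24 and 0.32 in ApoE-/- mice and 0.16, 0.15, 0.12 and 0.16 in WT mice. The ratio to the marker was lower without overlap for 14 of the 17 markers for *Cst3*, 12 for *Ctsa*, *Ctsc* and *Cstb* and 11 for *Ctsz*. It was lower for 8 markers for *Ctsl*, 6 for *Ctsk*, 5 for *Ctsd* and 3 for *Ctsb*. Each of these 4 genes was higher without overlap for 1 marker, and their genotypes overlapped for the remaining markers. For 15 of the 17 markers every ApoE-/- mouse itself lay above every WT mouse. A gene with little change therefore has lower ratios to them. These ratios are descriptions, without a test, and the share of all genes with such ratios was not counted.

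**Figure D3:**
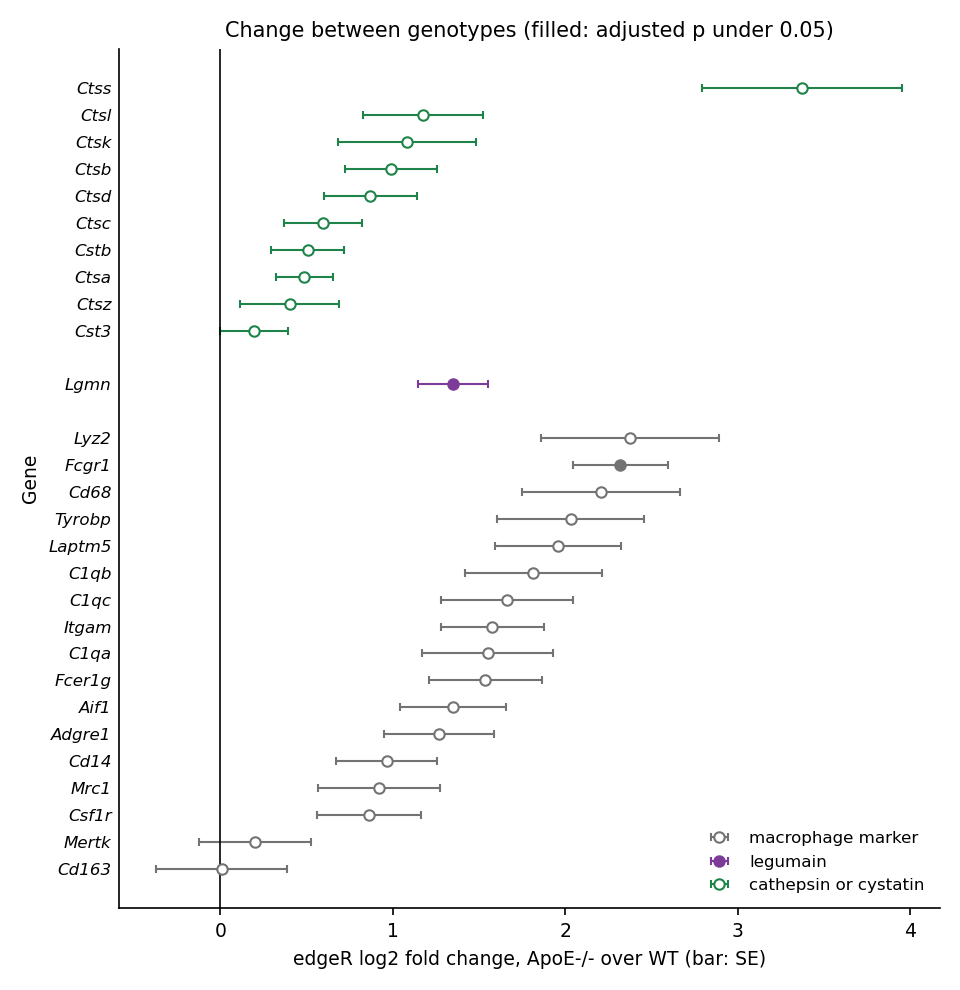
edgeR log2 fold changes of ApoE-/- over WT (points, with bars of 1 SE) for the 10 genes (green), *Lgmn* (purple) and the 17 macrophage markers (grey). *Ctss* at 3.37 lies to the right of all markers, of which *Lyz2* is highest at 2.37, and filled points (*Lgmn* and *Fcgr1*) passed the threshold.

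Osteoclast genes were examined because of *Ctsk*. Of 9 listed, 5 were tested and edgeR called 0, with 1 at an unadjusted p under 0.05, and DESeq2 called 1. That gene, *Atp6v0d2*, a subunit of the proton pump also found in macrophages, was at 1.79, 18.5, 31.4 and 51.0 CPM in ApoE-/- mice and at 1.33, 0.655, 1.55 and 0.431 CPM in WT mice. The log2 fold change of *Atp6v0d2* was 4.69, larger than that of *Ctss*. *Acp5*, *Mmp9* and *Tnfrsf11a*, encoding tartrate-resistant acid phosphatase, gelatinase B and RANK, had overlapping genotypes, with log2 fold changes of 0.49, 0.57 and 0.36. The osteoclast-defining *Calcr*, *Ocstamp*, *Dcstamp* and *Oscar* did not pass the filter, with at most 78 counts in a mouse.

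Genes of other cell types also differed in places. Contractile smooth muscle genes marked the tissue as vessel wall, with 8 of 8 tested and summed levels of 4803 to 19605 CPM in ApoE-/- and 10671 to 20054 CPM in WT mice. The lowest sum was that of ApoE-/- mouse 1. All 7 endothelial genes, all 8 cardiac muscle genes tested and all 7 adipocyte genes had negative log2 fold changes, and all 7 fibroblast and all 9 T and B cell genes tested had positive ones. edgeR called 0 genes of these 6 lists, with unadjusted p under 0.05 for 0 of smooth muscle, 4 endothelial, 7 cardiac, 0 adipocyte, 2 fibroblast and 4 T and B cell genes. DESeq2 called 3 endothelial and 5 cardiac genes as lower and 1 fibroblast gene as higher. Over all genes, edgeR called 0.0929% as lower (4.17% at the unadjusted threshold) and DESeq2 1.45%. For 7 cardiac and 3 endothelial genes every ApoE-/- mouse lay below every WT mouse, and for 1 fibroblast gene above. The share of all genes below without overlap was not counted. Summed cardiac muscle levels were 160 to 342 CPM in ApoE-/- and 414 to 717 CPM in WT mice. Of 6 neutrophil and mast cell genes tested, edgeR called 0 (1 at an unadjusted p under 0.05) and DESeq2 called 2 as higher. The part of these differences in the values of the cathepsins was not tested.

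To compare levels between genes, CPM was divided by the length of the principal transcript in kilobases. *Cst3* had the highest level, 726 ± 25.9 CPM per kb in WT mice (SD, N = 4), and stood at rank 31 of 14556 genes. It was followed in WT mice by *Ctsb* (146), *Ctsd* (131), *Ctsl* (113) and *Ctsz* (82.3), whose neighbours in this order had overlapping ranges. *Cstb* (34.5) was lower than these and above *Ctsc* (28.2), *Ctsa* (27.1) was not separate from *Ctsc*, and *Ctsk* (13.0) and *Ctss* (6.75 to 14.5) shared the lowest place. In ApoE-/- mice *Ctss* reached 114 ± 87.5 CPM per kb and stood at the 5th place in place of the 10th, at rank 344 of all genes against rank 6057. Its level was 33.2, 95.1, 89.4 and 239 CPM per kb in the 4 mice, and without mouse 4 the mean was 72.6 CPM per kb, at the 6th place below *Ctsz* (89.5). In mouse 1 *Ctss* stood at the 7th place, below *Cstb*. *Ctsb* reached 289 ± 107, *Ctsl* 255 ± 136, *Ctsd* 240.0 ± 97.0, *Ctsz* 109 ± 38.9 and *Cst3* 830.2 ± 208 CPM per kb. The share of *Cst3* in the sum of the 10 genes was 55.3% in WT and 41.6% in ApoE-/- mice, and that of *Ctss* 0.838% and 5.72%. With the length of all annotated exons in place of the principal transcript, *Ctsl* stood at the 6th place in both genotypes, at 34.3 and 77.5 CPM per kb, and *Ctss* was 4th in ApoE-/- mice.

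**Figure D4:**
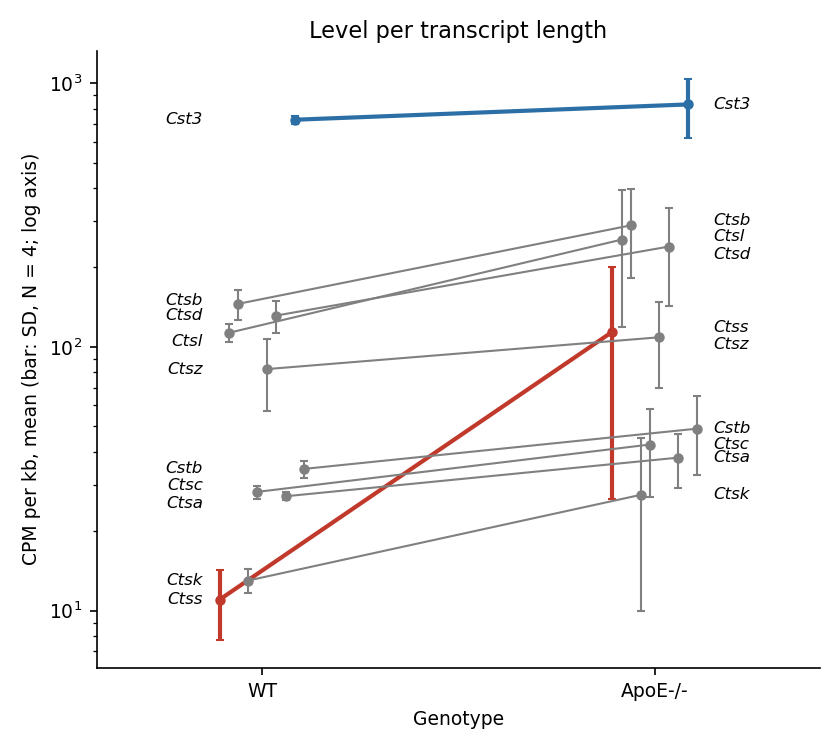
Mean CPM per kb of transcript (log axis) of the 10 genes in WT and ApoE-/- mice, with bars of 1 SD (N = 4) and small sideways shifts for legibility. *Cst3* (blue) runs above all others, and the line of *Ctss* (red) runs from the lowest place to the middle of the group at 114, with a wide SD.

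Cystatins act on the cysteine cathepsins, so the summed level per kb of *Ctsb*, *Ctsc*, *Ctsk*, *Ctsl*, *Ctss* and *Ctsz* was set against that of *Cst3* and *Cstb* in each mouse. The ratio was 0.85, 0.73, 0.90 and 1.21 in ApoE-/- mice and 0.56, 0.50, 0.42 and 0.59 in WT mice. Among these genes the cathepsin sum exceeded the cystatin sum in ApoE-/- mouse 4 alone, and every ApoE-/- mouse had a higher ratio than any WT mouse, including mouse 1, whose cystatin sum was the lowest of all 8 mice. The means were 0.92 ± 0.20 and 0.52 ± 0.07 (SD, N = 4), 1.78 times apart, or 1.79 times with the length of all exons. With the other tested cysteine cathepsins *Ctsf*, *Ctsh*, *Ctso* and *Ctsw* added, the ratio was 0.98, 0.86, 1.05 and 1.35 in ApoE-/- mice and 0.70, 0.63, 0.56 and 0.72 in WT mice, so that it passed 1 in mouse 3 as well. The members were grouped with their levels known, and no test of this ratio was made. It compares transcripts, not active enzyme.

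**Figure D5:**
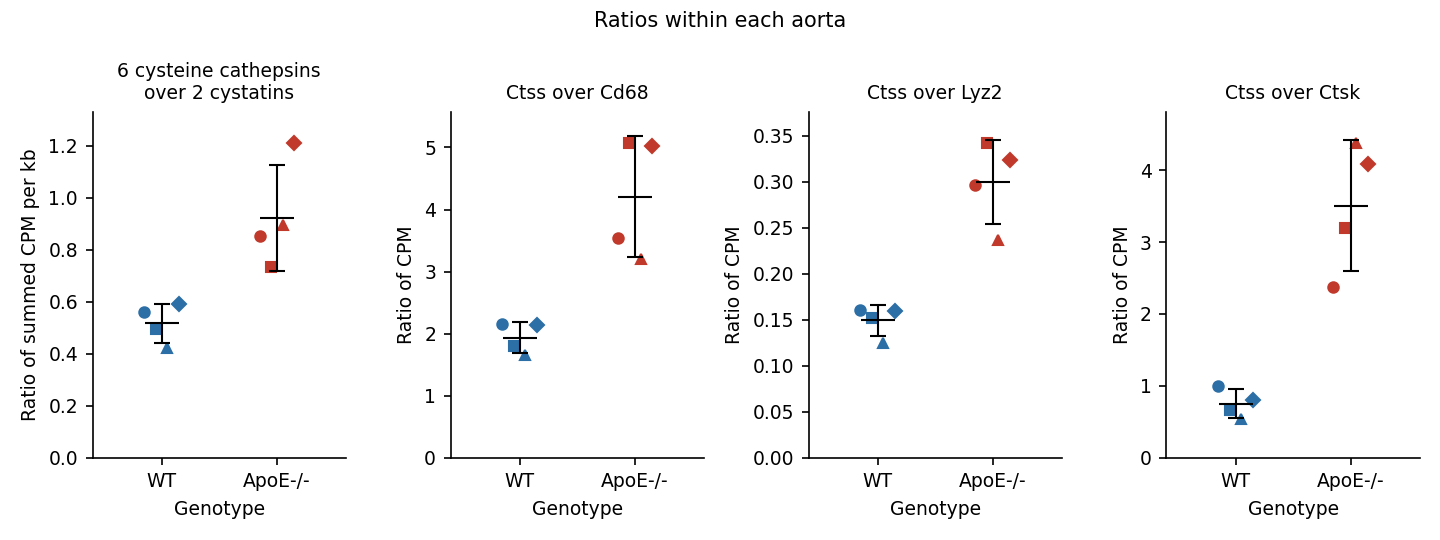
Ratios within each aorta (points, one per mouse; bars, mean and SD, N = 4): 6 cysteine cathepsins over 2 cystatins by CPM per kb, and *Ctss* over *Cd68*, *Lyz2* and *Ctsk* by CPM. In all 4 panels the lowest ApoE-/- mouse lies above the highest WT mouse, for example 0.73 against 0.59 in the first panel.

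Most other members of these families had few counts in the aorta. Of 15 other cathepsins, 4 passed the filter, and edgeR called 0 (0 at an unadjusted p under 0.05) and DESeq2 0. The 3 with the highest level per kb were *Ctsh*, an aminopeptidase, and *Ctsf* and *Ctso*, with log2 fold changes of 0.48, -0.03 and 0.10. *Ctsh* ranged from 52.0 to 167 CPM in ApoE-/- mice around a WT range of 70.6 to 95.1 CPM. The 11 that did not pass had at most 18 counts in a mouse, and 6 of them, most of them placental cathepsins, had 0 counts in all 8 mice, which allows up to 3 counts per library. Of 25 other cystatins, stefins and kininogens, 23 were in the files and 5 were tested, of which *Kng2*, *Cst7* and *Ahsg* had the highest level per kb, with log2 fold changes of -0.61, -0.24 and 0.48. edgeR called 0 of the 5 (0 at an unadjusted p under 0.05), and DESeq2 called *Kng1*, which edgeR's filter had removed. *Kng1*, a kininogen with cystatin domains, had 5, 6, 4 and 11 counts in ApoE-/- mice and 0 in each WT mouse (DESeq2 adjusted p = 0.0108).

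Among 17 genes of cathepsin maturation, binding partners and lysosomal sorting, edgeR called 1 as higher, with 5 at an unadjusted p under 0.05, and DESeq2 called 3. *Lgmn* encodes legumain, the asparaginyl endopeptidase that cuts precursor cathepsins in the lysosome and is itself bound by cystatin C. It rose from 78.7, 81.9, 65.9 and 73.8 CPM in WT mice to 173, 132, 202 and 258 CPM in ApoE-/- mice. The log2 fold change was 1.35 (SE 0.20, adjusted p = 0.0396 in edgeR and 4.16e-07 in DESeq2). *Lgmn* was not lowest in mouse 1, unlike most cathepsins. Its edgeR call held without ApoE-/- mouse 1 or 2 and was lost without any of the other 6 mice (highest adjusted p = 0.170), whereas DESeq2 called it in all 8 fits.

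DESeq2 also called *Glb1*, the beta-galactosidase that cathepsin A protects, and *Gnptab*, which makes the mannose 6-phosphate tag. *Glb1* was at 28.6, 23.7, 29.3 and 34.4 CPM in ApoE-/- mice and at 21.2, 19.7, 19.2 and 19.1 CPM in WT mice (adjusted p = 0.00778 in DESeq2 and 0.102 in edgeR). *Gnptab* was at 94.2, 67.2, 84.9 and 69.7 CPM and at 58.6, 60.1, 51.3 and 57.6 CPM (adjusted p = 0.0388 in DESeq2 and 0.162 in edgeR). Both were separate between the genotypes, and *Gnptab* was highest in mouse 1. With 1 mouse left out, DESeq2 called *Glb1* in 5 of 8 fits and *Gnptab* in 2 of 8. *Neu1*, the neuraminidase of the same complex, had a log2 fold change of -0.11 (SE 0.14) with overlapping genotypes, and neither tool called it. The 3 genes of this list with the highest level per kb, *Psap*, *Lrp1* and *Lamp1*, encoding prosaposin, an endocytic receptor and a lysosomal membrane protein, had log2 fold changes of 0.51, 0.51 and 0.27 with overlapping genotypes. Of 7 genes tested from the list of other lysosomal peptidases, edgeR called 0 (3 at an unadjusted p under 0.05) and DESeq2 0, and *Cpq*, *Scpep1* and *Ppt1* (the last a palmitoyl thioesterase and not a peptidase, and 1 of those 3) had log2 fold changes of 0.35, 0.40 and 0.38.

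The E-box CACGTG is the core of the sequence bound by TFEB, TFE3 and MITF, the factors that switch on lysosomal genes. *Tfeb*, *Tfe3* and *Mitf* had log2 fold changes of -0.25, 0.14 and 0.21, and neither tool called them. RefSeq gave 9 promoter windows for 8 of the 10 genes, and CACGTG, which reads the same on both strands, was found in the 250 bases before the start in 3 of them, against 6.02% of 32851 windows. Those of *Ctsd* and *Ctsl* are shown, with the E-box in capitals.
Ctsd, chr7:142387908-142387937, minus strand, GRCm38.p6: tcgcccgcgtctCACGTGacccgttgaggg
Ctsl, chr13:64370739-64370768, minus strand, GRCm38.p6: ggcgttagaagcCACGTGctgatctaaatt
They began 98 and 236 bases before the RefSeq start, and GENCODE has a longer *Ctsd* transcript whose first exon holds the former. The *Ctsl* stretch likewise lies inside the gene as GENCODE annotates it, in an intron of one transcript and partly in the first exon of another. The *Ctsd* window held another at 245 bases, and the third window was one inside *Ctsa*, before a later start. GAGGAAGT, a PU.1 motif, was found in the window of *Ctsc* only (2.44% of all windows, both strands searched), and TGACTCA, an AP-1 motif, in none of the 9 (4.46%).

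The extracellular proteins that these cathepsins can degrade were described by 8 genes. All 8 had positive log2 fold changes, edgeR called 0 with 4 at an unadjusted p under 0.05, and DESeq2 called 1, *Col3a1*, which encodes type III collagen. *Col3a1* was at 1484, 2151, 3797 and 3179 CPM in ApoE-/- mice and at 997, 922, 1301 and 917 CPM in WT mice (log2 fold change 1.36, SE 0.32, adjusted p = 0.107 in edgeR and 0.000774 in DESeq2). It was again lowest in ApoE-/- mouse 1 but highest in mouse 3, not in mouse 4. The 3 with the highest level per kb, *Dcn*, *Bgn* and *Fn1*, encoding decorin, biglycan and fibronectin, had log2 fold changes of 0.27, 0.64 and 1.01 with overlapping genotypes.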

How the data were processed

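Total RNA of 8 mouse aortas (4 ApoE-/-, 4 WT) was sequenced as stranded, ribodepleted, paired-end libraries. For each mouse the authors deposited 1 table of counts, the unnormalized number of read pairs on each gene. The submitters' processing notes name TopHat2, HTSeq and GRCm38 (mm10), and versions are not given in the sources used here. Pairs without an assigned gene were left out: 64.4% to 67.7% of all pairs in ApoE-/- and 69.8% to 72.1% in WT mice. This share moved with genotype, and its part in the results was not tested.

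Counts were fitted with edgeR 4.0.16 (R 4.3.3): filterByExpr, TMM, glmQLFit with robust estimation, glmQLFTest, genotype as the only factor, two-sided, Benjamini-Hochberg over all genes tested, threshold 0.05. Alternatives were DESeq2 1.42.0, limma-voom (limma 3.58.1), other factors and filters, no robust estimation, a replicate block and leaving out each mouse. The SE is the fold change divided by the square root of F. P-values set the difference between the genotypes against the spread between mice. Lengths came from GENCODE M21 (best APPRIS transcript) and promoters from RefSeq (GRCm38.p6); *Ctsb* and *Cstb* were not matched there. Figures were drawn with matplotlib 3.10.9.

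The 10 genes, the related and marker lists and the rule for named genes were chosen with earlier results of these data known. Named were the 10 genes, *Apoe*, related genes called by edgeR or DESeq2, the 3 highest per kb in each related list, and for each of the 10 the 3 genes most alike. *Neu1*, *Tfeb*, *Tfe3*, *Mitf*, the flanking genes and the markers given with values were named after their values were seen.

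In 3 simulations of this comparison (14949 to 14963 genes in edgeR, 15056 to 15065 in DESeq2), edgeR found 54.6% to 68.8% of log2 changes of 1.5 and 90.8% to 96.9% of those of 3, with 2.52% to 3.95% of calls false. DESeq2 found 76% to 80% and 94% to 95%, with 19.2% to 20.1% false. Each gene was drawn on its own, without a shift shared by the genes of a mouse. Changes smaller than 1.5 were not simulated. Whether these shares hold for the measured data was not tested.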

Additional observations from a re-analysis of the deposited data

Results flagged for a closer look

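In 2 of 30 groups of 4 mice examined, 1 mouse lay far from the others by Dixon's ratio of the gap to the range, above the critical value. About 1.5 such groups are due to chance alone. Both were ApoE-/- mouse 4. For *Ctsd* its 817 CPM stood above a next highest value of 444 CPM (ratio 0.851). For *Cstb* its 44.1 CPM stood above a next highest value of 26.2 CPM (ratio 0.852). The summed level of the 17 macrophage markers was also highest in that mouse, and its part in these values was not tested.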

How the results depend on the processing

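The fitted direction of all 10 genes was the same in all 25 alternatives, none of which gave a negative value. The number called of the 10 was 0 in edgeR and 4 in DESeq2, and with 1 mouse left out it ranged from 0 to 3 in edgeR (3 without ApoE-/- mouse 1) and from 1 to 7 in DESeq2 (7 without that mouse). Of the related genes 1 was called by edgeR, 5 by DESeq2, 0 by limma-voom and 0 with the replicate block, and with 1 mouse left out 0 to 9 in edgeR and 2 to 17 in DESeq2. Of all genes 70 were called by edgeR, 721 by DESeq2, 29 by limma-voom and 2 with the replicate block, and with 1 mouse left out 0 to 593 in edgeR and 431 to 1548 in DESeq2. The highest of these counts were again those without ApoE-/- mouse 1. Other factors, filters and the fit without robust estimation left the call of all 10 genes and of *Lgmn* as it was. *Lgmn* lost its call with limma-voom (adjusted p = 0.0540) and with the replicate block (adjusted p = 0.140). Replicate numbers come from the sample titles and were shared by different mice (correlations of same-numbered mice 0.06, -0.45, 0.32 and 0.16). The labels do not say whether same-numbered mice were processed together, and this was not tested. The block also removes degrees of freedom. The count of genes without overlap, 7, was 7 to 9 with 1 mouse left out, an alternative chosen after seeing the data, as were the length of all exons and the 4 added cathepsins in the cathepsin to cystatin ratio (1.63 times between the genotypes in place of 1.78). The causes of these differences were not tested. With 4 mice per genotype, a log2 change of 1.5 was often missed in simulated data.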
